A study of Mus musculus with 12 samples.

Results

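The genes described here serve the S phase of the cell cycle: they license and fire replication origins, copy the DNA, supply nucleotides, restore chromatin behind the fork, or control entry into S phase. They were taken from a list of 35 genes, and each was read from the single-symbol probe set with the highest mean over the 12 arrays. Chaf1a was not named in the annotation used and was not analysed here, which left 34 genes. All 34 passed the filter on low values, among 12918 genes tested of 18193 named on the array. They were measured in mouse bone-marrow progenitors that carried c-Kit and Sca-1 but neither lineage markers nor Flt3, with 1 array per sample. INV16 arrays (replicates 1 to 4) came from cells given a retrovirus for INV16, the leukaemia fusion of the core binding factor subunit CBFB with a smooth muscle myosin. ACD mutant arrays (replicates 1 to 3) came from cells given INV16 without its assembly competent domain, which the study's design text describes as not leukaemogenic. MIB control arrays (replicates 3 to 7) came from cells given the empty vector. All groups began as normal marrow cells and grew for 24 h in 10% serum with SCF (50 ng/ml) and IL-6 (5 ng/ml). Virus was then applied for 4 h, and RNA of GFP-positive cells was taken after 20 h more. The fusion was thus expressed only briefly, in cells already growing with cytokines, and mouse age and strain are not given in the labels used here.

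Before S phase, the origin recognition complex with Cdc6 and Cdt1 loads the Mcm2 to Mcm7 ring onto DNA, and the ring becomes an active helicase when Cdc45 and the GINS complex join it. Primase and polymerase alpha then lay down primers, polymerases epsilon and delta extend them on the Pcna clamp, and flap removal and ligation join the pieces. Transcription of many of these genes is driven by E2F factors as a cell leaves G1, and blood progenitors stimulated with cytokines are known to enter the cycle in this way.

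The upstream sequences of these genes were searched for letters that E2F factors are known to bind. Whether such letters relate to the values on any array was not tested. The motifs TTTCCCGC, TTTGGCGC, TTTCGCGC and TTTGCCGC were looked for on both strands in the 250 bases before the start of each gene in RefSeq promoters of GRCm38.p6. Of the 35 listed genes 30 had a promoter there, and 9 of these (30%) held a match: Cdc6, Dnmt1, Mcm5, Mcm6, Mcm7, Orc1, Pola1, Rfc3 and Uhrf1. The share was 3.73% among the 10448 tested genes with a promoter (390 genes), 1.86% among all 32851 promoters (611), 18.2% among 33 other replication genes (6) and 4% among 25 genes of G2 and mitosis (1). A listed gene counted when any of its promoters held a match, while the share over all promoters counts each promoter. Dnmt1, Uhrf1 and Mcm7 also have promoters, at other annotated starts, that held no match. A match describes these letters and is not shown to be bound. The stretches around the matches are shown for Uhrf1, Dnmt1, Rfc3 and Orc1, whose values are described below, and for Mcm5 and Mcm6, the genes with more than 1 match, chosen after the matches were seen. Each is written from 5′ to 3′ on the strand of its gene, with the matched letters in capitals. They lie at chr17:56304088-56304175 (plus strand, Uhrf1), chr9:20952795-20952873 (minus strand, Dnmt1), chr5:151651209-151651258 (minus strand, Rfc3), chr4:108579387-108579453 (plus strand, Orc1), chr8:75109316-75109407 (plus strand, Mcm5) and chr1:128359706-128359855 (minus strand, Mcm6).
Uhrf1: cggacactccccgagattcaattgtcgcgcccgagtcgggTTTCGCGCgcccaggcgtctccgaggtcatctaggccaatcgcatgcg
Dnmt1: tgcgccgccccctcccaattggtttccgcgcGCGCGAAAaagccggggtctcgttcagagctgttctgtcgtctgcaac
Rfc3: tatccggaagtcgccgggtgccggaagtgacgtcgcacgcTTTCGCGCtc
Orc1: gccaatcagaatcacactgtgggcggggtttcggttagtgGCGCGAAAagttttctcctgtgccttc
Mcm5: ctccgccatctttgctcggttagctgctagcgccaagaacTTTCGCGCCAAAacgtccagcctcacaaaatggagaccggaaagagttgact
Mcm6: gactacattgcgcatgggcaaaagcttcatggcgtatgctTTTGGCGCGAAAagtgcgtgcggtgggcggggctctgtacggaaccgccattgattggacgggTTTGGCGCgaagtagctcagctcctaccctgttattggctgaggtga
In Uhrf1 the match begins 185 bases before the annotated start of the promoter shown, in Dnmt1 219, in Rfc3 10 and in Orc1 27. In Mcm5 matches on both strands overlap in the run of capitals, which begins 153 bases before the start. In Mcm6 the longer run likewise joins overlapping matches of both strands, from 110 bases before the start, and another match begins 47 bases before it.

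The values are log2 signals as deposited, and array medians lay between 5.62 and 5.79. The arrays divided by their bacterial spike-in controls. BioC exceeded BioB by 1.17 to 1.31 log2 in INV16 replicates 1 to 3 and MIB control replicates 3 to 5, here called batch A. The difference was -0.02 to 0.20 in INV16 replicate 4, all ACD mutant arrays and MIB control replicates 6 and 7, here called batch B. Without INV16 replicate 4, no batch held both INV16 and ACD mutant arrays. As a guide to RNA quality the 3′ minus 5′ difference of the Gapdh probe sets was read, which grows as RNA breaks. The RNA was amplified in 2 cycles, and the part of amplification in this difference was not tested. It was 3.64 log2 for INV16 replicate 4 and 3.17 for ACD mutant replicate 1, with 1.10 to 1.98 for the remaining arrays. INV16 replicate 4 stood apart: its correlation with any other array over probe sets, which are not independent, was at most 0.917, while each of the others reached 0.991 to 0.996 with its nearest neighbour. Of the markers used in the sort, Kit measured 10.99 there, within the 10.26 to 11.43 of the other 11 arrays. Flt3, which the sort selected against, measured 7.70 there and 8.03 to 9.76 on the others, above the filter on low values, and the gene for Sca-1 was not analysed here. Markers not used in the sort did not all move alike. The pan-leukocyte Ptprc had 8.01 there where the others had 11.84 to 12.44, and the progenitor marker Cd34 had 7.39 where they had 11.15 to 12.35. Gata2 and Slamf1, given below, lay above all other arrays. With the mast cell genes given below, the Ptprc and Cd34 levels go against the labelled progenitor cells. The label of this array is thus in doubt, and whether it holds was not tested. The name INV16 replicate 4 stands for the array so labelled, which is given by itself, and INV16 means below are those of replicates 1 to 3.

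INV16 replicate 4 had the lowest level of all 12 arrays for each of the 34 S phase genes. Below all other arrays lay 34 of 34, where 38.8% of all genes tested did. At least 1 log2 unit below the mean of the other INV16 arrays lay 29 of the 34 (85.3%), where 20.8% of all genes did. The median deviation was -1.88 log2, or 3.68-fold lower, against a median of -0.00 over all genes, and 16 of the 34 were at least 2 and 4 at least 3 log2 units lower. With 1 array there is no test, and in bulk RNA fewer cycling cells and less RNA per cell cannot be told apart.

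**Figure D1:**
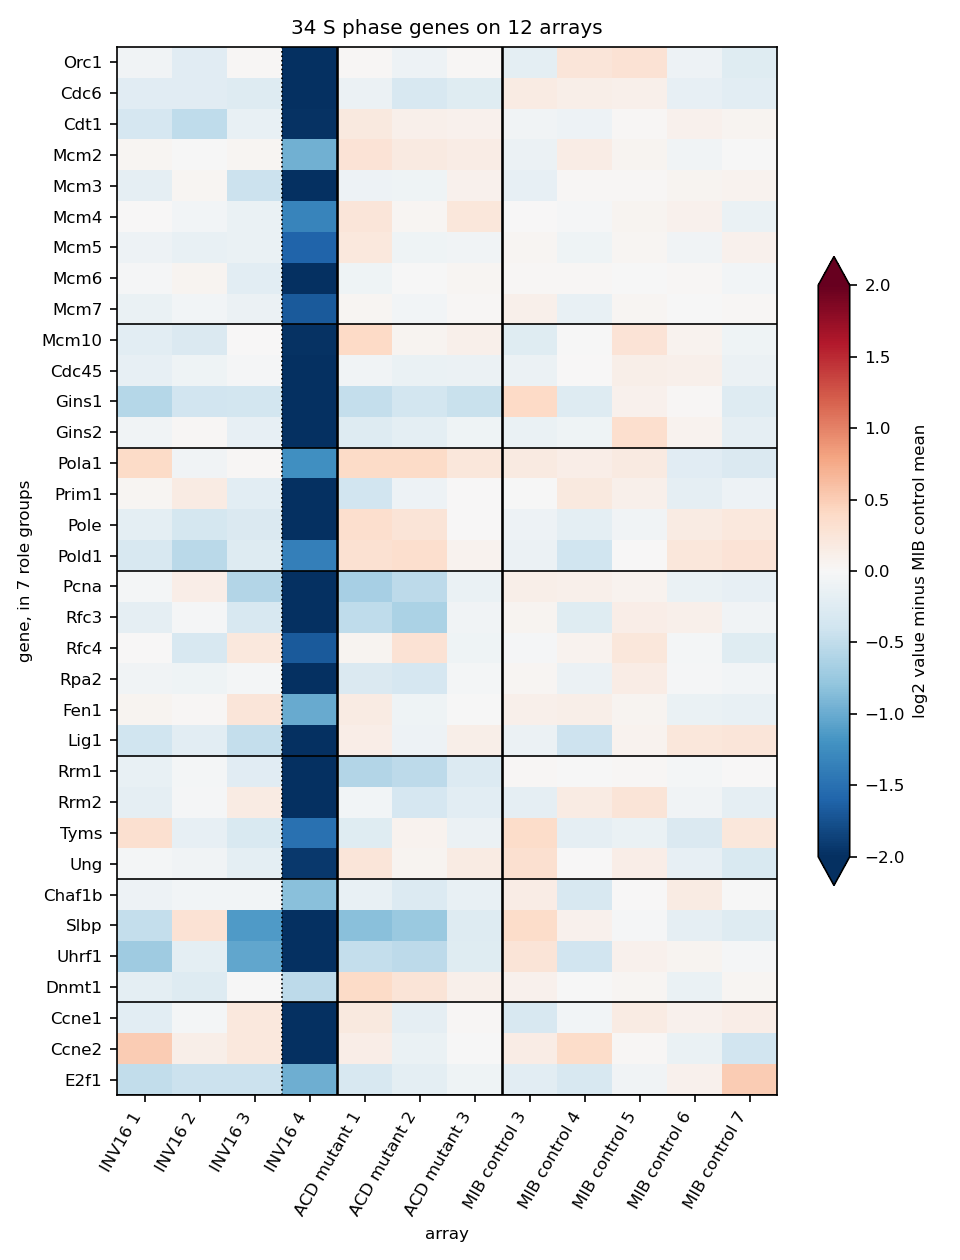
Log2 value of each of the 34 S phase genes (rows, in 7 role groups) on each of the 12 arrays (columns), minus the gene's MIB control mean, with colours ending at 2 log2 units either way. The INV16 replicate 4 column is blue in every row, in shades from pale to dark, with a mean of -2.18. The means of the other columns lie between -0.19 and 0.08.

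The 5 largest deviations on INV16 replicate 4 came from 4 of the 7 role groups. Ccne2, a cyclin that drives entry into S phase, measured 4.94 there against 9.86, 9.47 and 9.55 on the other INV16 arrays, a difference of -4.69 (25.8-fold lower). It measured 9.47, 9.22 and 9.34 in the ACD mutant and 9.49, 9.71, 9.37, 9.21 and 8.96 in MIB control. Its level on INV16 replicate 4 thus lay below the filter on low values (5.10), where differences are compressed, while the other 11 arrays formed a narrow band.
Orc1, the largest subunit of the origin recognition complex, measured 4.93 there against 8.46, 8.31 and 8.56 (difference -3.51). Its values were 8.56, 8.43 and 8.56 in the ACD mutant and 8.35, 8.79, 8.82, 8.44 and 8.29 in MIB control. Its level on INV16 replicate 4 also lay below the filter, so this difference is compressed too. Another Orc1 probe set deviated by -0.74. The 3 groups overlapped for Orc1, and no array but INV16 replicate 4 fell outside 8.29 to 8.82.
Gins1, a GINS subunit, measured 6.97 there against 10.15, 10.34 and 10.35 (-3.31). Prim1, the catalytic primase subunit, measured 8.41 there against 11.54, 11.67 and 11.29 (-3.09), with 11.12, 11.40 and 11.50 in the ACD mutant and 11.49, 11.69, 11.60, 11.31 and 11.40 in MIB control. Mcm3, a helicase ring subunit, measured 8.97 there against 11.89, 12.10 and 11.62 (-2.90), with 11.96, 11.98 and 12.14 in the ACD mutant and 11.89, 12.08, 12.08, 12.11 and 12.14 in MIB control. For Prim1 and Mcm3 as well the 3 groups overlapped once INV16 replicate 4 was set aside.

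By role, the lowest median deviation on INV16 replicate 4 was that of helicase activation (Mcm10, Cdc45, Gins1 and Gins2), at -2.83 with a range of -3.31 to -1.81. G1/S control (Ccne1, Ccne2 and E2f1) had -2.20, and nucleotide supply and uracil removal (Rrm1, Rrm2, Tyms and Ung) -2.15. The clamp, clamp loader and strand processing genes (Pcna, Rfc3, Rfc4, Rpa2, Fen1 and Lig1) had -1.79. The chromatin and DNA methylation genes (Chaf1b, Slbp, Uhrf1 and Dnmt1) had -1.69, helicase loading (Orc1, Cdc6, Cdt1 and Mcm2 to Mcm7) -1.65 and the polymerases with primase -1.53. Every gene of each role group was thus lower on that array.
The smallest deviations were those of Dnmt1, the maintenance DNA methyltransferase (-0.37), E2f1, the transcription factor (-0.53), and Chaf1b, a subunit of chromatin assembly factor 1 (-0.77). Dnmt1 has other probe sets, which deviated by -1.99 and -0.38, so its small value depends on the probe set read. Other probe sets of Rrm2 deviated by -4.66 and -3.89 and those of Mcm5 by -4.23 and -0.65, while that of Orc1 deviated by -0.74. The order of genes by deviation thus depends on the probe sets read as well. The order of the role medians on other probe sets was not tested.
Over the 35 other probe sets of these genes that passed the filter, which cover 26 genes, 32 were lower on INV16 replicate 4 and 25 by at least 1 log2. The exceptions were 1 probe set each of Mcm3 (0.45 higher), E2f1 (0.33) and Cdc45 (0.10), named after their values were seen.

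**Figure D2:**
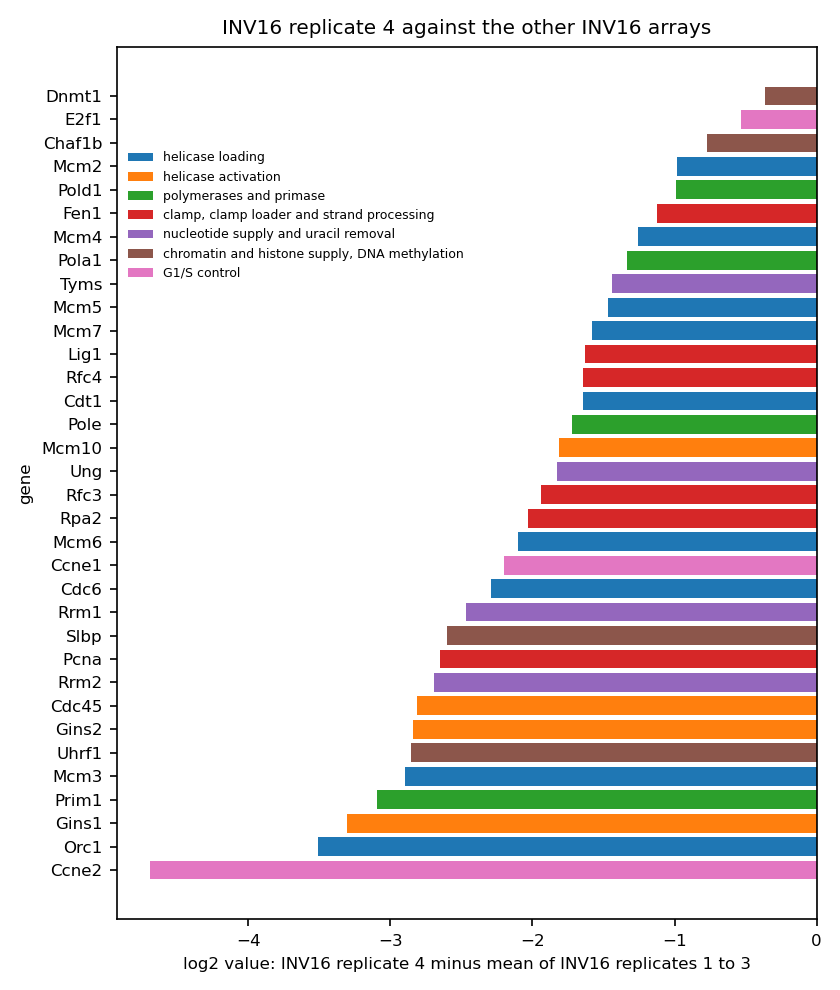
Log2 value on INV16 replicate 4 minus the mean of INV16 replicates 1 to 3 for each of the 34 genes, 1 bar a gene, coloured by role group. All bars point to lower values on INV16 replicate 4, between -4.69 (Ccne2) and -0.37 (Dnmt1).

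The genes with the highest mean level of the 7 role groups were Mcm7, Mcm10, Prim1, Fen1, Rrm1, Dnmt1 and Ccne1. They deviated on INV16 replicate 4 by between -0.37 (Dnmt1, 11.42 there) and -3.09 (Prim1), with Rrm1 at -2.47 (9.75 there). Mcm7, of the helicase ring, measured 11.84 on INV16 replicate 4 against 13.39, 13.47 and 13.41 on the other INV16 arrays, with 13.56, 13.46 and 13.54 in the ACD mutant and 13.62, 13.37, 13.56, 13.52 and 13.54 in MIB control. Mcm10, which helps to activate the helicase, measured 8.58 there against 10.34, 10.26 and 10.57, with 10.96, 10.61 and 10.65 in the ACD mutant and 10.32, 10.54, 10.83, 10.63 and 10.46 in MIB control. INV16 replicate 4 was the lowest array for each, with log2 deviations of -1.58 for Mcm7 and -1.81 for Mcm10. Other Mcm7 probe sets deviated by -3.17, -2.66 and -1.29, and another Mcm10 probe set past the filter by -0.40. The size of these deviations thus depends on the probe set read.
Fen1, the flap endonuclease, measured 12.29 there against 13.36, 13.33 and 13.56, with 13.47, 13.22 and 13.30 in the ACD mutant and 13.41, 13.43, 13.37, 13.18 and 13.16 in MIB control. Ccne1, the other E cyclin, measured 8.19 there against 10.19, 10.36 and 10.62, with 10.59, 10.23 and 10.43 in the ACD mutant and 10.08, 10.34, 10.57, 10.49 and 10.53 in MIB control. Fen1 thus deviated by -1.12 and Ccne1 by -2.20, while another probe set deviated by -2.85 for Fen1 and by -2.08 for Ccne1. Apart from INV16 replicate 4 the groups overlapped for both genes.

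Other measures moved with the low S phase values of INV16 replicate 4. Of 12 mast cell and basophil markers 11 were on the array and 8 tested. Their summed level (log2 of the sum of linear values) was 16.03 there against 11.37 to 11.66 on the other INV16 arrays, 12.43 to 12.71 in the ACD mutant and 11.15 to 12.39 in MIB control. On INV16 replicate 4, 7 of the 8 were higher than the mean of the other INV16 arrays, with a median of 4.93. Among them Fcer1a, a chain of the IgE receptor, stood at 13.31 where the other 11 arrays had 4.27 to 5.74. The carboxypeptidase Cpa3 had 14.27 against 9.31 to 11.38, the histidine decarboxylase Hdc 13.95 against 8.32 to 10.62, and another chain of that receptor, Ms4a2, 13.67 against 7.76 to 10.61. The basophil protease Mcpt8 was the exception, at 5.35 against 9.39 to 10.24. The progenitor factor Hoxa9 had 4.39 there and a mean of 12.46 ± 0.09 over the other INV16 arrays (SD, n = 3). The median deviation over 13 progenitor markers was -3.63, with 9 lower and 4 higher, of which 2 were higher by at least 1 log2. Gata2 had 11.74 there against 9.67 to 11.26 on the other 11 arrays, and Slamf1 had 8.35 against 5.27 to 7.46. The summed level of the neutrophil and monocyte list was 11.63 there against 14.70 to 15.19 on the other INV16 arrays, with the granule genes Prtn3 at -5.01, Ctsg at -3.91 and Mpo at -3.15. Among erythroid markers the transcription factor Klf1 deviated by 4.40 and the transferrin receptor Tfrc by -3.15, and among lymphoid markers Dntt deviated by -3.45 and Nkg7 by -3.40. The medians of these lists, -0.46 over 13 neutrophil and monocyte, 0.09 over 4 erythroid and 0.68 over 8 lymphoid markers, do not show these members. The Gapdh 3′ minus 5′ difference was 3.64 on this array and 3.17 on ACD mutant replicate 1, where the mean S phase deviation from MIB control was -0.06. The part of cell content, RNA quality and batch in the S phase values was not tested.

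Other genes of the same pathways were also low on that array. Of 39 other replication genes 36 were lower and 29 by at least 1 log2, with a median of -1.58. The origin-firing kinase Cdc7 had 6.48 there against 9.61 to 10.70 on the other 11 arrays, a deviation of -3.51 from the other INV16 arrays, while Rfc2, a clamp loader subunit, was 0.85 higher. Of 17 other nucleotide supply genes 15 were lower (median -1.41), the purine synthesis enzyme Ppat by 3.71, while the dNTP hydrolase Samhd1 was 1.56 higher. All 11 other replication chromatin genes were lower (median -1.89), the helicase Hells most, with 7.27 against 10.94 to 11.55 on the other arrays.
The low values were not particular to S phase. Of 29 genes of G2 and mitosis 28 were lower (median -2.17), with the checkpoint kinase Bub1 at 6.80 against 10.00 to 11.03, and Foxm1 0.44 higher. Of 15 E2F and pocket protein genes 11 were lower, with Lin9 at -2.74, and the retinoblastoma gene Rb1 was 2.11 higher. Of 14 cyclin-dependent kinase inhibitor and quiescence genes 13 were higher (median 1.31), Klf2 by 3.27, while Cdkn1c was lower by 0.82 log2. The list medians thus ran the opposite way for cycling genes and for inhibitors.

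**Figure D3:**
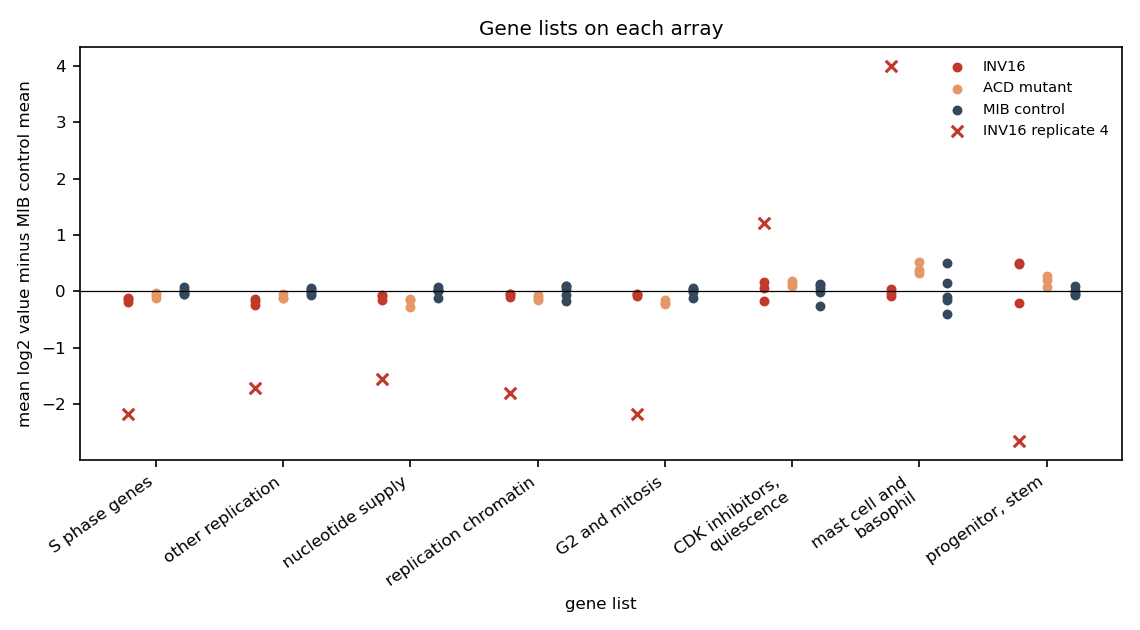
Mean log2 value of each gene list minus its MIB control mean (vertical axis) on each array, with dots for arrays coloured by group and a cross for INV16 replicate 4. The S phase cross lies at -2.18 and the mast cell cross at 4.00, while for the S phase genes all dots lie between -0.19 and 0.08.

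The question in the design is whether the intact fusion alters expression relative to the empty vector, and for the S phase genes no gene passed the test in INV16 replicates 1 to 3. The limma fit over 11 arrays called 0 of the 34 genes at an adjusted p under 0.05, where 1.7% of all genes were called (219, of which 81 were higher and 138 lower). At an unadjusted p under 0.05 there were 8, all lower, where 15.8% of all genes had one in either direction. The difference was below 0 for 30 of the 34 (88.2%, against 56.3% of all genes), with a median of -0.10 log2 against -0.03 over all genes. Differences ran from -0.65 (Uhrf1) to 0.28 (Ccne2), and 33 of the 34 95% intervals lay within 1 log2 unit of 0. Lower without overlap between the groups were 5 genes, Cdt1, Gins1, E2f1, Cdc6 and Mcm5 (14.7%, against 5.98% of all genes). Higher without overlap were 0, against 3.27% of all genes.

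Uhrf1, which recruits the maintenance methyltransferase to newly copied DNA, had the largest difference. It measured 10.28, 10.79 and 9.96 in INV16 and 11.25, 10.61, 11.07, 11.05 and 10.96 in MIB control. INV16 replicate 2 lay above MIB control replicate 4, so the groups overlapped, and the difference was -0.65 (SE 0.18, limma adjusted p = 0.0960). It passed without MIB control replicate 4 (-0.74, adjusted p = 0.0384) or without INV16 replicate 2 (-0.87, adjusted p = 0.0431), and another Uhrf1 probe set differed by 0.18.
Cdt1, the helicase loading factor, measured 12.02, 11.86 and 12.21 in INV16 and 12.29, 12.26, 12.39, 12.46 and 12.42 in MIB control. The groups did not overlap, with a difference of -0.33 (SE 0.10, limma adjusted p = 0.131). Gins1 measured 10.15, 10.34 and 10.35 in INV16 and 11.12, 10.46, 10.80, 10.75 and 10.47 in MIB control, again without overlap, and differed by -0.44 (SE 0.14, limma adjusted p = 0.145). Both were lower on each of the 3 INV16 arrays than on any MIB control array, by less than the test required.
E2f1 measured 8.21, 8.28 and 8.26 in INV16 and 8.49, 8.39, 8.63, 8.79 and 9.20 in MIB control, a difference of -0.45 (SE 0.15, limma adjusted p = 0.178). Lig1, the replicative DNA ligase, measured 10.65, 10.85 and 10.58 in INV16 and 10.93, 10.65, 11.12, 11.29 and 11.30 in MIB control, a difference of -0.37 (SE 0.15, limma adjusted p = 0.242). For both genes the highest MIB control arrays were replicates 6 and 7, those of batch B. Within batch A the differences were -0.25 for E2f1 and -0.21 for Lig1, against -0.64 for Uhrf1, -0.28 for Cdt1 and -0.52 for Gins1. Of the 34 genes 0 passed there, where 30 of all 12918 genes did. An unadjusted p under 0.05 was held by 3 of the 34 and by 1671 of all genes.

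**Figure D4:**
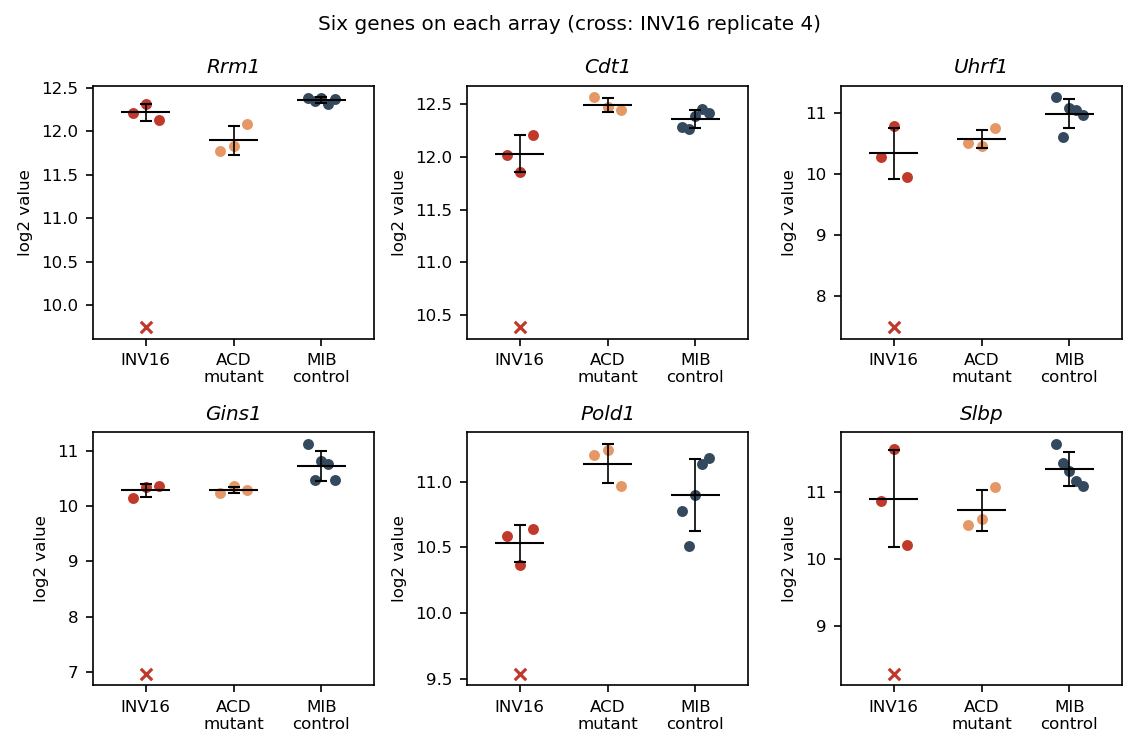
Log2 values of Rrm1, Cdt1, Uhrf1, Gins1, Pold1 and Slbp on each array, with dots for arrays by group, a line and bar for the group mean and SD without INV16 replicate 4, and a cross for INV16 replicate 4. Gins1 lies lower in both INV16 (10.15 to 10.35) and the ACD mutant (10.24 to 10.35) than in MIB control (10.46 to 11.12), and the Rrm1 dots of the ACD mutant (11.77 to 12.09) lie below those of MIB control (12.32 to 12.38).

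Most other S phase genes differed little between INV16 and MIB control. The median difference was -0.10 for helicase loading, -0.13 for helicase activation, -0.14 for the polymerases with primase, -0.11 for the clamp and strand processing genes, -0.07 for nucleotide supply, -0.30 for chromatin and methylation and -0.01 for G1/S control. Of the helicase ring, Mcm7 averaged 13.42 ± 0.04 in INV16 (SD, n = 3) and 13.52 ± 0.09 in MIB control (SD, n = 5), and Mcm2 averaged 12.31 ± 0.03 in INV16 and 12.28 ± 0.10 in MIB control. The 95% intervals of these differences were -0.29 to 0.10 for Mcm7 and -0.17 to 0.22 for Mcm2. They hold for the probe set read and are not adjusted for the number of genes. Rrm2, the regulated subunit of ribonucleotide reductase, averaged 12.22 ± 0.17 in INV16 and 12.24 ± 0.20 in MIB control, with an interval of -0.29 to 0.26.

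In the ACD mutant against MIB control, which tests the fusion without its assembly competent domain, 1 of the 34 genes passed the test. Called either way were 1.7% of all genes (220, of which 128 were higher and 92 lower), and called lower were 0.712%. The gene was Rrm1, the large subunit of ribonucleotide reductase, which makes the deoxynucleotides for replication. It measured 11.77, 11.83 and 12.09 in the ACD mutant and 12.38, 12.35, 12.38, 12.32 and 12.38 in MIB control. The groups did not overlap, the MIB control arrays lay between 12.32 and 12.38, and the difference was -0.46 (SE 0.10, 1.38-fold lower, limma adjusted p = 0.0380). Another Rrm1 probe set differed by -0.41. The call was kept in 9 of 20 alternative settings and lost without ACD mutant replicate 1 (-0.40, adjusted p = 0.196), the array with the high Gapdh difference, without ACD mutant replicate 2 (adjusted p = 0.193), and within batch B (-0.45, adjusted p = 0.116). It was also lost without MIB control replicate 3, 4 or 5 or INV16 replicate 1, where the adjusted p was 0.0513 to 0.0823. Mast cell markers, whose summed level was 12.43 to 12.71 in the ACD mutant and 11.15 to 12.39 in MIB control, and the spike-in BioB, 6.98 to 7.40 in the ACD mutant and 8.27 to 8.79 in MIB control, moved with the groups. Their part was not tested.

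The other 33 genes did not pass. Below 0 were 20 of the 34 (58.8%, against 48.6% of all genes), with a median of -0.02 against 0.01 over all genes. At an unadjusted p under 0.05 there were 10, of which 7 were lower and 3 higher, where 19.5% of all genes were. Lower without overlap were 3, Rrm1, Gins1 and Slbp (8.82%, against 5.84% of all genes), and higher without overlap were 2, Dnmt1 and Pola1 (5.88%, against 6.93%). The shares without overlap lay near those of all genes. Single differences depend on the probe set read. Other probe sets differed by -0.86 and -0.34 for Rrm2, -0.65 and -0.32 for Mcm5, -0.55 and -0.18 for E2f1, and -0.47 and 0.18 for Dnmt1. Some other probe sets past the filter reversed the sign of the one used. Higher instead of lower in the ACD mutant were those of Uhrf1 (0.57), Mcm3 (0.24 and 0.05), Prim1 (0.16), Mcm6 (0.16) and Tyms (0.15). Lower instead of higher were those of Fen1 (-0.24), Mcm10 (-0.14), Ccne1 (-0.08), Cdt1 (-0.06), Mcm4 (-0.04) and Rfc4 (-0.03). So were the Mcm5 probe sets above and that of Dnmt1 at -0.47.
Gins1 measured 10.24, 10.35 and 10.28 in the ACD mutant, below every MIB control array, and differed by -0.43 (SE 0.14, limma adjusted p = 0.115). Rfc3, a clamp loader subunit, measured 8.36, 8.24 and 8.80 in the ACD mutant and 8.94, 8.63, 9.01, 8.98 and 8.81 in MIB control, a difference of -0.41 (SE 0.14, limma adjusted p = 0.126). It measured 8.69, 8.84 and 8.56 in INV16. ACD mutant replicate 3 overlapped MIB control for Rfc3, and without that array the gene passed (adjusted p = 0.0486).
Pcna, the sliding clamp, measured 12.94, 13.08 and 13.47 in the ACD mutant and 13.72, 13.71, 13.67, 13.48 and 13.44 in MIB control, a difference of -0.44 (SE 0.16, limma adjusted p = 0.157). It measured 13.56, 13.74 and 13.01 in INV16. Slbp, which binds the stem-loop of histone mRNAs, measured 10.50, 10.59 and 11.08 in the ACD mutant and 11.71, 11.43, 11.31, 11.16 and 11.09 in MIB control, a difference of -0.62 (SE 0.26, limma adjusted p = 0.205). Slbp was also the most variable gene among INV16 arrays, at 10.86, 11.63 and 10.20 (SD 0.72).
For Rrm1, Rfc3, Pcna and Slbp the highest ACD mutant value was that of replicate 3, and for Gins1 that of replicate 2. Within batch B, where MIB control has replicates 6 and 7 alone, the differences were -0.32 for Gins1, -0.43 for Rfc3, -0.30 for Pcna and -0.40 for Slbp. Of the 34 genes 0 passed there, where 42 of all 12918 genes did. An unadjusted p under 0.05 was held by 9 of the 34 and by 2605 of all genes.

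**Figure D5:**
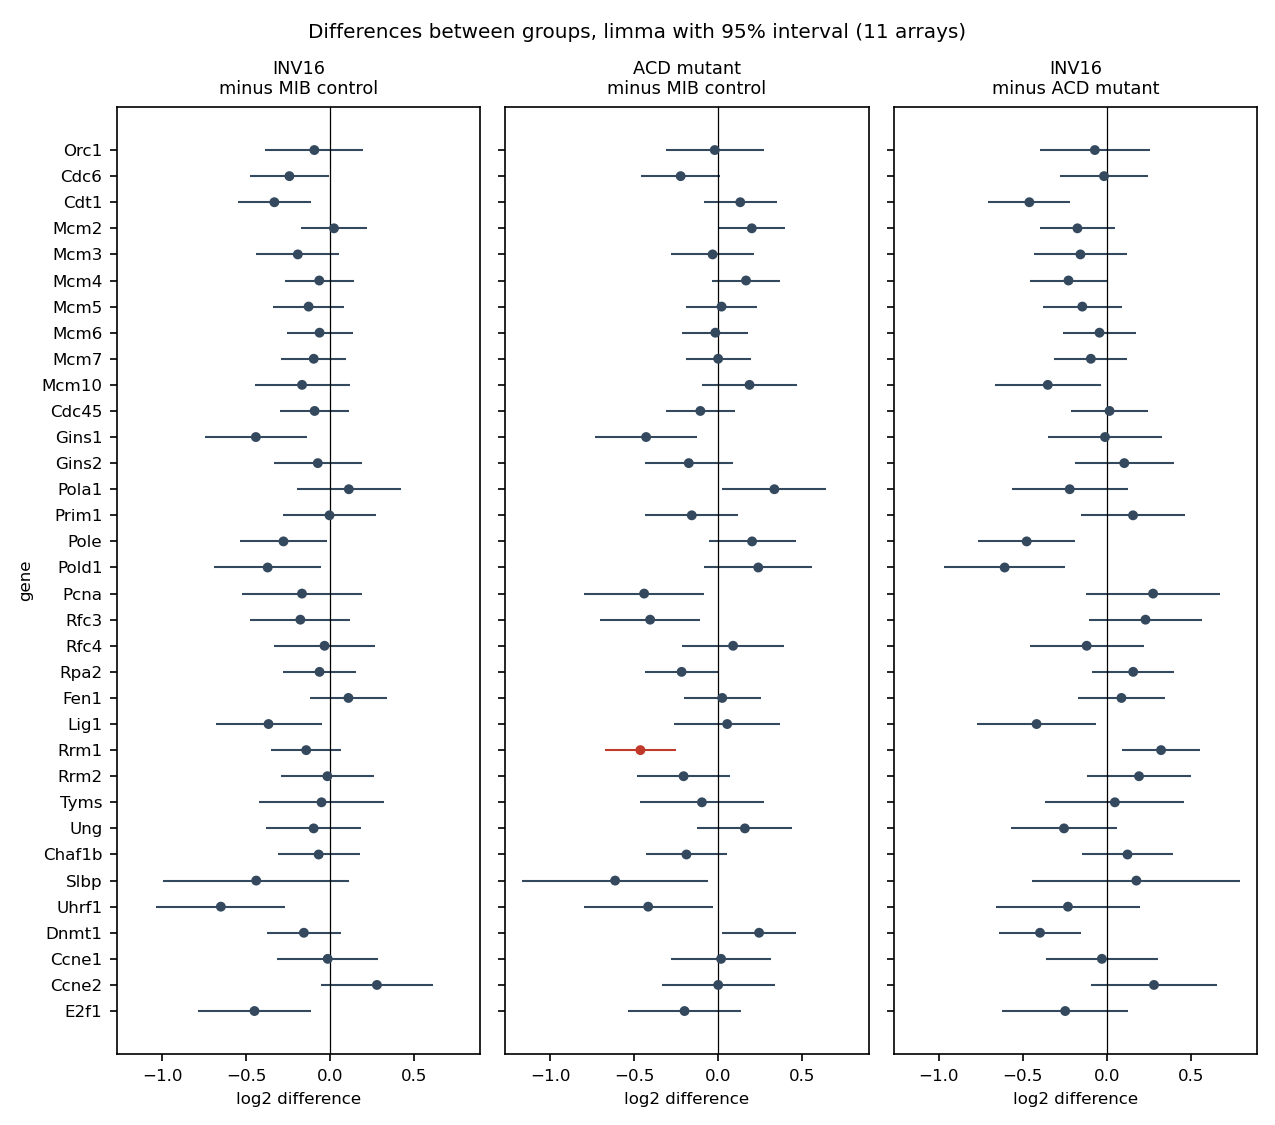
Log2 difference of each of the 34 genes (points) with its 95% interval (lines) in INV16 minus MIB control, the ACD mutant minus MIB control, and INV16 minus the ACD mutant, from limma over 11 arrays. The gene drawn in red, Rrm1 in the middle panel at -0.46, is the 1 that passed an adjusted p of 0.05, and most other points lie within 0.5 log2 units of 0.

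INV16 against the ACD mutant sets the intact fusion against the form without its assembly competent domain, and 0 of the 34 genes passed. Of all genes 2.07% did (267, of which 40 were higher and 227 lower), and 7 of the 34 had an unadjusted p under 0.05, 6 lower and 1 higher, where 19% of all genes did. Below 0 were 21 of the 34, with a median of -0.06 against -0.02 over all genes. Lower without overlap were 11 (32.4%, against 19.2% of all genes), and higher without overlap were 2, Rrm1 and Chaf1b (5.88%, against 9.44%). All INV16 arrays of this comparison were of batch A and all ACD mutant arrays of batch B, so batch and group cannot be told apart except through the MIB control arrays. With the batch as a block, limma called 0 of all 12918 genes (1492 at an unadjusted p under 0.05), and 4 of the 34 had an unadjusted p under 0.05.

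The lowest p-values belonged to Cdt1 and to the leading- and lagging-strand polymerases. Cdt1 measured 12.02, 11.86 and 12.21 in INV16 and 12.57, 12.47 and 12.44 in the ACD mutant, a difference of -0.46 (SE 0.11, limma adjusted p = 0.0531). Another Cdt1 probe set differed by -0.40, and with the batch as a block the difference was -0.34. The groups did not overlap. Cdt1 passed without INV16 replicate 3 (-0.55, limma adjusted p = 0.0348), MIB control replicate 3 (adjusted p = 0.0499) or MIB control replicate 7 (adjusted p = 0.0475).
Pold1, the catalytic subunit of polymerase delta, measured 10.58, 10.37 and 10.64 in INV16 and 11.21, 11.24 and 10.97 in the ACD mutant, a difference of -0.61 (SE 0.17, limma adjusted p = 0.0745). It passed without MIB control replicate 4 (adjusted p = 0.0417) or 7 (adjusted p = 0.0488), its other probe set differed by -0.64, and its MIB control values were 10.78, 10.51, 10.90, 11.13 and 11.18. Pole, that of polymerase epsilon, measured 10.04, 9.88 and 9.94 in INV16 and 10.57, 10.49 and 10.23 in the ACD mutant, a difference of -0.48 (SE 0.13, limma adjusted p = 0.0812). For both polymerases the MIB control arrays of batch B lay above those of batch A (Pole 10.13, 10.04 and 10.16 in batch A, 10.39 and 10.44 in batch B), and with the batch as a block the differences were -0.18 for Pold1 and -0.17 for Pole.
Dnmt1 measured 11.74, 11.68 and 11.93 in INV16 and 12.31, 12.19 and 12.03 in the ACD mutant, a difference of -0.40 (SE 0.11, limma adjusted p = 0.0854), with 12.02, 11.92, 11.97, 11.80 and 11.98 in MIB control. Its other probe sets differed by 0.18 and -0.32, so they did not share a direction. Rrm1 went the other way, at 12.21, 12.32 and 12.13 in INV16 against 11.77, 11.83 and 12.09 in the ACD mutant, a difference of 0.32 (SE 0.11, limma adjusted p = 0.131). Another Rrm1 probe set differed by 0.70.
All 9 helicase loading genes lay lower in INV16 than in the ACD mutant, with a median of -0.15 and a range of -0.46 to -0.02, though other probe sets of Mcm5 (0.30), Mcm3 (0.26), Mcm7 (0.24 and 0.15) and Orc1 (0.07) were higher in INV16, so the shared direction depends on the probe sets read. The median was 0.12 for the clamp and strand processing genes and 0.12 for nucleotide supply. None of them passed in this comparison by limma.

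Other genes of the pathway were read from lists. Of 39 other replication genes, 0 passed in INV16 against MIB control, 2 were lower in the ACD mutant against MIB control and 1 was lower in INV16 against the ACD mutant. Beside these counts stand the shares called among all genes, which were 1.7% in INV16 against MIB control, 0.712% lower in the ACD mutant against MIB control and 2.07% in INV16 against the ACD mutant. Rnaseh2a, which helps to remove ribonucleotides from DNA, averaged 9.40 ± 0.26 in the ACD mutant (SD, n = 3) and 10.23 ± 0.23 in MIB control (SD, n = 5), a log2 difference of -0.83 (limma adjusted p = 0.0327). Orc5, an origin recognition subunit, averaged 8.03 ± 0.21 in the ACD mutant and 8.57 ± 0.13 in MIB control, a difference of -0.54 (limma adjusted p = 0.0431). Neither passed under the batch block (limma adjusted p = 0.0744 for Rnaseh2a and 0.0954 for Orc5).
Prim2, the regulatory primase subunit, averaged 9.52 ± 0.16 in INV16 and 10.13 ± 0.04 in the ACD mutant (SD, n = 3 each), a difference of -0.61 (limma adjusted p = 0.0193, or 0.274 under the batch block). None of 17 other nucleotide supply genes and none of 11 other replication chromatin genes passed in any of the 3 comparisons by limma.
Of 15 E2F and pocket protein genes, 2 fell in INV16 against MIB control, where 1.7% of all genes were called, 1 was higher in the ACD mutant against MIB control and 2 were lower in INV16 against the ACD mutant. E2f8, an E2F that represses transcription, ranged from 10.78 to 10.95 in INV16 and from 11.29 to 11.60 in MIB control, without overlap. Its difference was -0.55 (SE 0.10, limma adjusted p = 0.0132), and it passed under the batch block (-0.50, adjusted p = 0.0390) but not without INV16 replicate 1 or 2 (adjusted p at most 0.105), nor within batch A (-0.50, adjusted p = 0.132). Averaged over all its probe sets it differed by -0.06 (limma adjusted p = 0.844), so its call rests on the probe set read. E2f8 was also lower in INV16 than in the ACD mutant (-0.52, limma adjusted p = 0.0312), which did not pass under the batch block (adjusted p = 0.370).
E2f2 ranged from 6.91 to 7.14 in INV16 and from 7.22 to 7.72 in MIB control, a difference of -0.56 (limma adjusted p = 0.0357) that passed in 5 of 20 alternative settings. Rb1, the E2F-binding pocket protein, averaged 9.52 ± 0.09 in the ACD mutant and 9.04 ± 0.15 in MIB control, a difference of 0.48 (limma adjusted p = 0.0479). It was lower in INV16, at 8.97 ± 0.14, than in the ACD mutant (-0.55, adjusted p = 0.0415), and under the batch block neither passed (adjusted p = 0.0695 against MIB control and 0.177 against INV16).
Outside S phase, 1 of 29 genes of G2 and mitosis passed, the mitotic kinase Aurka, lower in the ACD mutant compared with MIB control (-0.54, limma adjusted p = 0.0484). Of the 14 inhibitor and quiescence genes, the antiproliferative Btg1 was higher in the ACD mutant arrays (0.68 over MIB control, limma adjusted p = 0.0458), and the kinase inhibitor Cdkn1c was lower in INV16 than in the ACD mutant (-0.95, limma adjusted p = 0.0397). Under the batch block none of these 3 genes passed (adjusted p = 0.168 for Aurka, 0.179 for Btg1 and 0.588 for Cdkn1c).
Of 20 alternative settings, the calls held in 14 for Rnaseh2a, 9 for Orc5, 12 for Prim2, 15 for E2f8 against MIB control and 11 against the ACD mutant. They held in 6 for Rb1 against MIB control and 9 against INV16, 6 for Aurka, 7 for Btg1 and 11 for Cdkn1c. Single arrays decided many of these calls, with a limma adjusted p of up to 0.237 when 1 array was left out. Rnaseh2a was lost without MIB control replicate 5 or ACD mutant replicate 1 or 2, and Orc5 without MIB control replicate 4, 5 or 6, INV16 replicate 1 or 2, or ACD mutant replicate 1 or 2. Prim2 was lost without INV16 replicate 2 or any ACD mutant array, and E2f8 against the ACD mutant without INV16 replicate 1 or 2 or any ACD mutant array. E2f2 passed in 1 of 11 such fits, that without MIB control replicate 4. Rb1 against MIB control passed in 3 of 11, those without MIB control replicate 4 or 7 or INV16 replicate 3. Rb1 and Cdkn1c in INV16 against the ACD mutant passed in 4 of 11, those without MIB control replicate 3, 4, 6 or 7. Aurka passed in 3 of 11, those without MIB control replicate 7, INV16 replicate 3 or ACD mutant replicate 3, and Btg1 in 4 of 11, those without MIB control replicate 6 or 7 or INV16 replicate 2 or 3.

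Markers of other cell types gave a few calls beside these. The shares called among all genes were 1.7%, 1.7% and 2.07% in the 3 comparisons, in the order given below. The neutrophil gene S100a8 (-3.08, limma adjusted p = 0.0144) and the lymphoid Nkg7 (-0.73, adjusted p = 0.0150) were lower in INV16 than in MIB control, and the lymphoid Dntt (3.04, adjusted p = 0.0227) and the stem cell marker Procr (1.48, adjusted p = 0.0252) were higher. S100a8 stood at 5.03 to 5.48 in INV16, near the filter on low values (5.10), where differences are compressed. Its MIB control values spread from 6.97 to 10.28 (SD 1.30). In the ACD mutant against MIB control, Hdc (1.56, limma adjusted p = 0.0150) and the stem cell marker Slamf1 (1.2, adjusted p = 0.0378) were higher. In INV16 against the ACD mutant, Cpa3 (-1.45, limma adjusted p = 0.0379) and Ms4a2 (-2.01, adjusted p = 0.0418) were lower. S100a8, Nkg7, Dntt and Procr were lost without INV16 replicate 1 or 2, Procr also without MIB control replicate 5, and Hdc without ACD mutant replicate 1 or 2 (limma adjusted p up to 0.155). Under the batch block Dntt (limma adjusted p = 0.0642), Hdc (0.0695), Slamf1 (0.153), Cpa3 (0.425) and Ms4a2 (0.495) did not pass, while S100a8 (0.0498), Nkg7 (0.0481) and Procr (0.0232) did. Slamf1 passed in 6 of 11 fits without 1 array, and Cpa3 and Ms4a2 in 4 of 11. None of the 4 tested erythroid markers passed in any of the 3 comparisons by limma. The summed level of the neutrophil and monocyte list was 14.70 to 15.19 in INV16, 14.95 to 15.30 in the ACD mutant and 14.81 to 15.68 in MIB control, and that of the progenitor list was 14.36 to 14.92 in INV16, 14.49 to 14.69 in the ACD mutant and 14.42 to 14.77 in MIB control. The part of cell content in the S phase differences was not tested.

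Within groups, the S phase genes varied about as much as other genes. The median SD over the 34 was 0.13 in INV16 replicates 1 to 3, 0.13 in the ACD mutant and 0.17 in MIB control, against 0.15, 0.12 and 0.18 over all genes. The steadiest were Cdc6 in INV16 (SD 0.02), Cdc45 in the ACD mutant (0.03) and Rrm1 in MIB control (0.03). The widest were Slbp in INV16 (0.72) and the ACD mutant (0.31) and E2f1 in MIB control (0.32). Averaged over the 34 genes, the deviation from the MIB control mean was -0.13, -0.12 and -0.19 on INV16 replicates 1 to 3, -0.06, -0.12 and -0.04 on the ACD mutant arrays, and -0.05 to 0.08 on the MIB control arrays. All 3 INV16 arrays thus lay below every MIB control array on this average, as did ACD mutant replicates 1 and 2. The 39 other replication genes averaged -0.17, -0.13 and -0.24 on these INV16 arrays and at lowest -0.07 in MIB control. Genes of G2 and mitosis averaged -0.05, -0.04 and -0.09, within the -0.11 to 0.05 of MIB control. Over all genes the median difference of INV16 from MIB control was -0.03, with 56.3% below 0. The averages by array were not tested.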

How the data were processed

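RNA of 12 sorted samples was hybridised to an Affymetrix mouse array, 1 array each. Per the labels' protocols it was amplified in 2 cycles and labelled with biotin, and replicates were sorted, transduced and analysed separately, per the series design text, so p-values reflect variation among such repeats. The authors deposited 45101 probe sets as log2 values, read as log2 from their range (2.82 to 14.97). Their background correction, normalisation and summarisation are not given in the sources used here. The values carry no measure of background or depth, the number of arrays limits precision, and low values are compressed.

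Probe sets with 1 gene symbol (34958) were used, and those with several (932) or none (9211) and 64 controls were left out. A mean over 12 arrays above the 40th percentile (5.10) left 27022 probe sets, and the probe set with the highest mean stood for each of 12918 genes. A limma model (version 3.58.1, R 4.3.3) with a mean per group was fitted over 11 arrays, leaving INV16 replicate 4 apart, with 8 residual degrees of freedom and a prior of 5.04, two-sided tests, and Benjamini-Hochberg adjustment over the 12918 genes. The fit was tested on simulated data. A batch is a group of arrays with the same BioC minus BioB difference, over or under 0.5 log2. No 2 arrays held the same values: the lowest SD of a difference was 0.224. Unused columns numbered 0.

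The S phase genes, the 11 other lists and the tests were chosen with earlier results of these data known. Values on every array are given for called genes, the 5 smallest p-values of each comparison, the 5 largest deviations of INV16 replicate 4 and the highest gene of each role group. Of other lists, up to 4 called members per comparison, the extremes on INV16 replicate 4 and high markers could be named. Alternatives were the filter, quantile normalisation, the mean of all probe sets, other fits, the batch, the replicate block and leaving out each array.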

Additional observations from a re-analysis of the deposited data

Results flagged for a closer look

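A sample is listed here when its gap to the nearest sample, divided by the range of its group, exceeded Dixon's 95% critical value (0.829 for 4 samples, 0.710 for 5). Over the 34 S phase genes 68 groups were tested, and chance alone lists about 1 in 20. In INV16, replicate 4 was low in 23 genes, with gaps of 0.844 to 0.985 of the range. Its log2 values were 4.93 for Orc1, 8.11 for Cdc6, 11.33 for Mcm2, 8.97 for Mcm3, 10.67 for Mcm4, 11.28 for Mcm5, 10.42 for Mcm6 and 11.84 for Mcm7. They were 8.58 for Mcm10, 6.59 for Cdc45, 6.97 for Gins1, 7.12 for Gins2, 8.41 for Prim1 and 8.23 for Pole. They were 6.76 for Rfc3, 8.99 for Rpa2, 9.06 for Lig1, 9.75 for Rrm1, 9.53 for Rrm2 and 8.08 for Ung. They were 9.33 for Chaf1b, 4.94 for Ccne2 and 7.72 for E2f1. These genes are read from the same RNA and are not independent. In MIB control, replicate 3 was low for Mcm3, at 11.89, with a gap of 0.772 of the range.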

How the results depend on the processing

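The number of arrays limits precision, and no depth or background is known. With all 12 arrays limma called 20 genes in INV16 against MIB control, 0 in the ACD mutant against MIB control (892 at an unadjusted p under 0.05; 220 in the 11-array fit) and 5 in INV16 against the ACD mutant. The S phase medians were then -0.640 in INV16 against MIB control and -0.561 in INV16 against the ACD mutant. With all 12 arrays and the batch as a block, chosen after seeing the data, 73, 0 (1229 unadjusted) and 4 genes were called, with medians of -0.747, 0.433 and -1.161. Fits of the compared groups alone called 93, 72 and 840 genes, and 2 S phase genes in INV16 against the ACD mutant. Trend and robust moderation called 281 genes there, 1 of them an S phase gene. Within batch A 30 genes were called in INV16 against MIB control, and within batch B 42 in the ACD mutant against MIB control. The batch block called 20 genes in the ACD mutant against MIB control and 0 in INV16 against the ACD mutant (1492 unadjusted), where the median was -0.139. The mean of all probe sets called 173 genes in INV16 against the ACD mutant, and quantile normalisation gave a median of -0.015 there. In INV16 against MIB control, 4 S phase genes lay above 0 in the 11-array fit, 8 after quantile normalisation and 6 with the mean of all probe sets. The number was 3 with the batch block and 4 to 9 in fits without 1 array. Rrm1, the 1 S phase gene called in the ACD mutant, was not called (0 genes) with all 12 arrays, with or without the block, the mean of all probe sets, the compared groups alone, the batch block or within batch B. The median of INV16 replicate 4 was -1.645 after quantile normalisation, which moved the median of all genes to 0.13, and -2.014 with the mean of all probe sets; all 34 genes stayed below 0.

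Leaving out single arrays called 29 (without INV16 replicate 1) to 332 genes (without MIB control replicate 4) in INV16 against MIB control, 3 (without ACD mutant replicate 1) to 591 (without MIB control replicate 7) in the ACD mutant against MIB control and 36 (without ACD mutant replicate 2) to 505 (without MIB control replicate 7) in INV16 against the ACD mutant, with 0 to 1, 0 to 2 and 0 to 2 S phase genes and medians of -0.137 to -0.086, -0.046 to -0.008 and -0.087 to -0.038. The median of INV16 replicate 4 was -1.939 to -1.87. Same-numbered INV16 and ACD mutant arrays did not deviate together (correlations of -0.31 to -0.16, against -0.23 to 0.42 for differently numbered ones). Deviations from means of 3 arrays cannot show whether the numbers pair them. A replicate block called 380 genes in INV16 against the ACD mutant (2401 unadjusted) and 0 S phase genes (6 unadjusted). Signs turned with all 12 arrays and the batch block in the ACD mutant against MIB control for Rrm1 (0.12), Gins1 (0.40), Rfc3 (0.03), Pcna (0.26), Slbp (0.12) and Aurka (0.07). They turned likewise in INV16 against the ACD mutant for Rrm1 (-1.02; -0.29 with all 12 arrays alone), Cpa3 (1.19), Ms4a2 (1.21) and Rb1 (0.49), and in INV16 against MIB control for Procr (-0.10). These fits add INV16 replicate 4, and the cause was not tested.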
